A study of Homo sapiens with 12 samples.

Results

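The genes described here encode the contractile actin and myosin apparatus, the targets of serum response factor (SRF) and of the coactivator YAP, and the transcription factors and coactivators that drive them. They were taken by name from a list of 37 genes, out of 57773 in the files, and were followed across 4 groups of libraries of T47D cells, a luminal breast cancer line. The genes were chosen by role with earlier results of these data known, and p-values make no allowance for that choice. Those results included the fold changes of Lo19S over control cells under DMSO, where CNN1 (ENSG00000130176), CCN2 (ENSG00000118523) and ACTA2 (ENSG00000107796) led the falls. Values of that comparison, and of the difference between states in the bortezomib response that contains it, are therefore given as a description without p-values. Of the 37 genes, 36 passed the filter on low counts. CAV1, which encodes the caveola protein caveolin-1, did not, with at most 6 counts in a library.

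Cells generate tension with bundles of actin filaments that myosin slides along, held together by crosslinkers and anchored at adhesions. SRF binds promoters of cytoskeletal genes together with the coactivators MRTFA and MRTFB, which are kept in the cytoplasm by unpolymerised actin and released when filaments form. YAP, encoded by YAP1, and its paralog TAZ, encoded by WWTR1, bind DNA through TEAD factors and are held back by the LATS kinases of the Hippo pathway, whose activity falls when cells spread or stiffen. In the epithelium of the breast, high levels of smooth muscle actin and calponin mark myoepithelial rather than luminal cells.

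All cells carried a hairpin construct that silences PSMD2, part of the 19S cap of the proteasome, when doxycycline is given. Lo19S cells had it switched on with doxycycline at 0.2 µg/ml over 3 days and then spent 24 h in medium without the drug, whereas control cells were not induced. Each state then received bortezomib, a proteasome inhibitor, at 20 nM or the solvent DMSO for 16 h. The groups, with 3 libraries each, are Lo19S cells with bortezomib, control cells with bortezomib, Lo19S cells with DMSO and control cells with DMSO. Knockdown, doxycycline and the hairpin itself cannot be told apart in this design. Whether replicates are separate cultures is not said in the labels, so p-values measure the spread between these libraries, which may be technical.

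Counts per gene were summed to 7376597 to 15003480 per library. Levels are CPM, counts per 1000000 of a library's total adjusted by its TMM factor (a trimmed mean of log ratios between libraries), and every fold change and adjusted p comes from the quasi-likelihood test of edgeR fitted to 14714 genes over all 12 libraries, with Benjamini-Hochberg adjustment and a gene called below 0.05. PSMD2, the knockdown target, was at 539, 545 and 538 CPM in Lo19S cells with bortezomib and at 1505, 1507 and 1524 CPM in control cells with bortezomib. PSMD2 under DMSO was at 183, 189 and 184 CPM in Lo19S cells and at 407, 391 and 416 CPM in control cells. Control DMSO replicate 3 stood apart from the other replicates of its group: its counts differed from theirs by 3.98 and 4.36 times sampling noise (chi-square over its degrees of freedom, 1 for sampling noise alone), against 1.16 to 2.01 times in the other pairs of replicates. The 10 luminal markers summed to between 3890 and 7180 CPM, whereas 6 myoepithelial markers reached at most 5.35 CPM, 5 smooth muscle markers 5.75 CPM, 4 endothelial markers found in the files 0.371 CPM and 6 leukocyte markers 2.07 CPM, with CD3E at 0 in all 12 libraries. Summed fibroblast markers reached 69.7 CPM, of which COL1A1 alone accounted for up to 67.5 CPM, and PDGFRA stayed at or below 0.119 CPM.

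The windows upstream of these genes were searched for the sites to which SRF and TEAD factors are known to bind. A RefSeq table of promoters (GRCh38.p14) held 57 windows of 250 bases before the start for 30 of the 37 genes. The CArG box of SRF was searched in exact letters, as CC, 6 bases of A or T, and GG, so near matches were not counted. In that form it was found on either strand in 8 of the 30 genes (26.7%), CNN2, ACTG1, MYLK, TPM4, ACTN1, FLNA, FHL2 and SRF itself, against 1.44% of the 27305 genes in the table. Counted by window it was in 17.5% of the windows of these genes and in 1.16% of all 35116. The motif GGAATG, the core of the site for TEAD factors, was found on either strand in 12 genes (40%) and in 14.3% of all genes, or in 22.8% and 11.9% of windows, and ACTN1 and FHL2 held both motifs. These genes were listed because SRF and YAP act on them, so the shares describe the list and are no test. The 6 windows below were chosen after the matches and the expression values were seen: CNN1, ACTA2 and CCN2 had the largest falls in Lo19S cells under DMSO, ANKRD1 the largest rise with bortezomib, and CNN2 and FLNA share the CArG box but moved in opposite directions with bortezomib. Each is written 5′ to 3′ on the strand of its gene, with motif matches in capitals.
CNN1, chr19:11538601-11538850, plus strand: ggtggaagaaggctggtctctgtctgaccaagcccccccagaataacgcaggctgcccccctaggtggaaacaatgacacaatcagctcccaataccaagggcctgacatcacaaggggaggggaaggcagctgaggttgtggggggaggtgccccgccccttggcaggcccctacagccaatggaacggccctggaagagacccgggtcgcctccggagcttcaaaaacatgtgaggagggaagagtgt
ACTA2, chr10:88952774-88953023, minus strand: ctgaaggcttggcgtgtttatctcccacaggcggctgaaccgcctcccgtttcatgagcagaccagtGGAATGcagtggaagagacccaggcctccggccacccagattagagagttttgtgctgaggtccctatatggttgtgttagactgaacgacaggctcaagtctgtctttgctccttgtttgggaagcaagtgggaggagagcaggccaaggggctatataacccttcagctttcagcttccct
CCN2, chr6:131951373-131951622, minus strand: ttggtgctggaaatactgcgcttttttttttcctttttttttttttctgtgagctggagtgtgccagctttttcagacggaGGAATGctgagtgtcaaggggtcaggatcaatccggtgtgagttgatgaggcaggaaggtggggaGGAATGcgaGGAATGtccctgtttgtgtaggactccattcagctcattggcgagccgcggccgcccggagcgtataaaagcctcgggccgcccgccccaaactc
ANKRD1, chr10:90921088-90921337, minus strand: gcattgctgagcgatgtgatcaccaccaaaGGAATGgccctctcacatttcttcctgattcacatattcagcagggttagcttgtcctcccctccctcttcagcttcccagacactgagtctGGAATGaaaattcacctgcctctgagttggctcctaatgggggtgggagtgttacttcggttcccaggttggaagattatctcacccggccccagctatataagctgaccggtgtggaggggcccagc
CNN2, chr19:1026358-1026607, plus strand: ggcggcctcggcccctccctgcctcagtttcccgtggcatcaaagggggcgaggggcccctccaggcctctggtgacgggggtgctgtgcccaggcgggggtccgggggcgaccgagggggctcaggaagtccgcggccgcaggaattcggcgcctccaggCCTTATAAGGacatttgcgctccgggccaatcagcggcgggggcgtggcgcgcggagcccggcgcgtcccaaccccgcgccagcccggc
FLNA, chrX:154374635-154374884, minus strand: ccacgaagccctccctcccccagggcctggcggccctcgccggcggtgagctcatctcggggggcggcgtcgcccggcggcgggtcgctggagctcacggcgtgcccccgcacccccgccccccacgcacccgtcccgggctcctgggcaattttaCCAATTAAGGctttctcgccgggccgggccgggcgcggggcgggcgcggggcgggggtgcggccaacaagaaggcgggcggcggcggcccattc
CCN2 held GGAATG at -169, -104 and -95 from the start, ANKRD1 at -220 and -128, and ACTA2 at -183 from the more downstream of its 2 starts. CNN2 held a CArG box at -89 and FLNA at -94. The CNN1 window held neither motif in these exact letters, which says nothing about sites elsewhere. The ACTA2 window shown held no exact CArG box either, but its stretches ccctatatgg and ccttgtttgg come close to that pattern.

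Lo19S cells had lower levels of most of these genes than control cells, whether or not bortezomib was present. Under DMSO, 27 of 36 genes were called lower in Lo19S cells and 0 higher, where 24.6% of all genes tested were called, 13% lower and 11.7% higher. This comparison was known when the genes were listed, so the count is only a description. The median log2 fold change was -0.26 over the 36 genes and -0.004 over all genes tested. In the 6 bortezomib libraries, which that comparison did not use, 22 of 36 were called lower in Lo19S cells and 4 higher, where 43.2% of all genes were called, 21.2% lower and 22% higher. The median there was -0.31, against 0.004 over all genes. With library totals in place of TMM factors the counts under bortezomib became 18 lower and 5 higher among these genes, and the share of higher calls among all called genes moved to 72.3%, against 50.9% with TMM. The set called lower under both treatments held 20 genes, which is 74.1% of those lower under DMSO and 90.9% of those lower under bortezomib. Over all genes tested the set lower under both was 43.3% of those lower under DMSO and 26.5% of those lower under bortezomib; the genes described here were listed with the DMSO falls known, so nothing is read from the difference. In bulk RNA, fewer cells expressing a gene and less RNA per cell cannot be told apart.

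**Figure D1:**
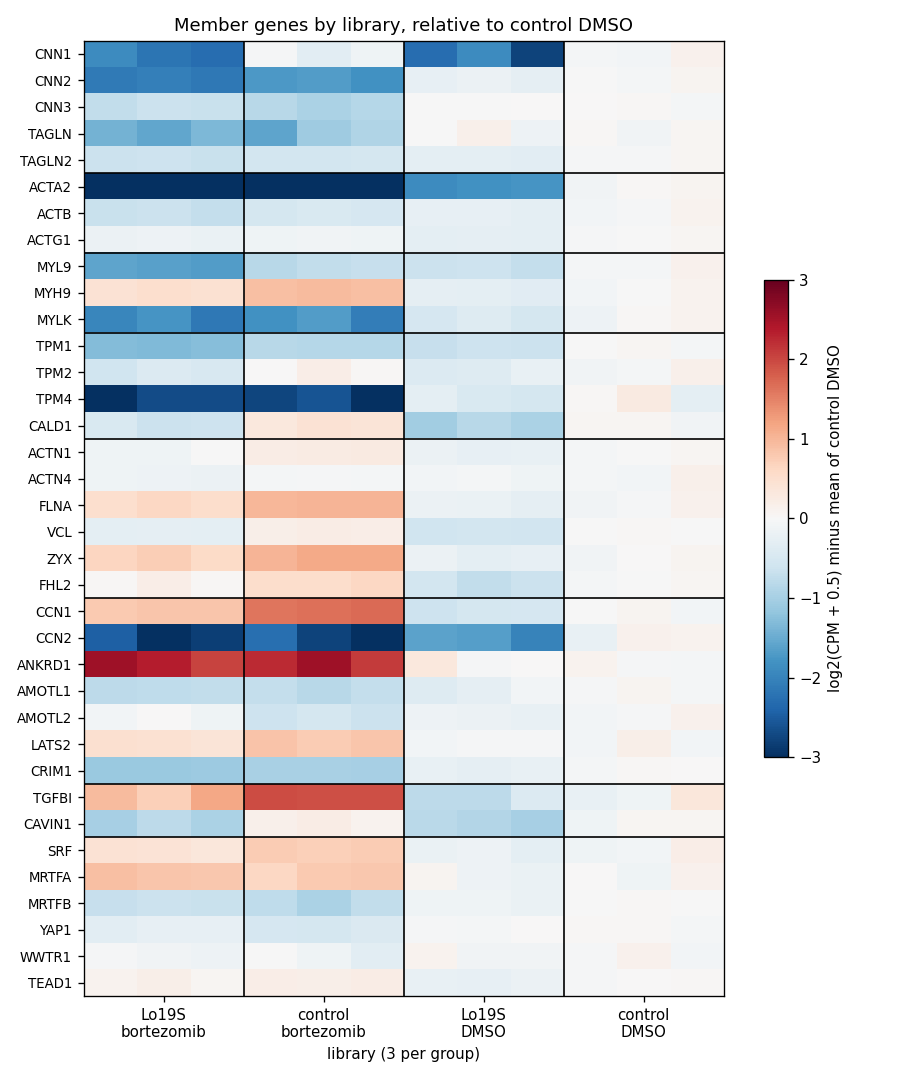
Level of each of the 36 measured genes in the 12 libraries, as log2(CPM + 0.5) minus the mean of the 3 control DMSO libraries; columns are libraries in their 4 groups and horizontal lines separate roles, from calponins and transgelins at the top to transcription factors at the bottom. The colour scale ends at -3 and 3, and deeper falls, such as those of ACTA2 with bortezomib, are drawn at its end. CNN1 and CAVIN1 are blue in both Lo19S groups and near white in both control groups, whereas ANKRD1 is red and CNN2 blue in both bortezomib groups.

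CNN1, which encodes the smooth muscle calponin that binds actin filaments, set the states apart most. It was at 1.19, 0.876 and 0.792 CPM in Lo19S cells with bortezomib, against 5.61, 4.56 and 5.23 CPM in control cells with bortezomib. CNN1 under DMSO was at 0.795, 1.20 and 0.427 CPM in Lo19S cells, against 5.58, 5.48 and 6.40 CPM in control cells. The 6 Lo19S libraries lay below all 6 control libraries, whatever the treatment. The Lo19S values rest on 4 to 14 counts per library and the control values on 41 to 74. The log2 fold change was -2.45 under bortezomib (SE 0.269, adjusted p = 1.63e-10) and -2.78 under DMSO (SE 0.244).

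The other calponins and transgelins differed less between states. CNN2, the calponin found in non-muscle cells, was at 47.9, 49.9 and 47.1 CPM in Lo19S cells with bortezomib, against 63.5, 64.8 and 59.2 CPM in control cells with bortezomib. CNN2 under DMSO was at 177, 184 and 175 CPM in Lo19S cells, against 206, 200.3 and 223 CPM in control cells. Lo19S libraries lay below control libraries within each treatment, by -0.38 on the log2 scale under bortezomib (SE 0.061, adjusted p = 1.26e-06) and -0.23 under DMSO (SE 0.042). CNN3, the acidic calponin, was higher in Lo19S cells under bortezomib (log2 0.20, SE 0.047, adjusted p = 0.000492) and differed by -0.01 under DMSO (SE 0.04). TAGLN2, the transgelin of non-muscle cells, was lower under bortezomib by -0.11 (SE 0.035, adjusted p = 0.00921), a call lost without Lo19S bortezomib replicate 3 (adjusted p = 0.0647) and a difference that became 0.00 with library totals. TAGLN, the smooth muscle transgelin, was at 5.60, 4.96 and 5.83 CPM in Lo19S cells with bortezomib, against 4.88, 7.22 and 8.20 CPM in control cells with bortezomib. TAGLN under DMSO was at 15.6, 17.4 and 14.2 CPM in Lo19S cells, against 16.2, 14.6 and 16.3 CPM in control cells. The groups overlapped in both treatments, and the log2 difference of -0.29 under bortezomib did not pass the test (SE 0.17, adjusted p = 0.17), although it did without control bortezomib replicate 1 (-0.47, adjusted p = 0.0296). TAGLN overlaps PCSK7 on the opposite strand, at a mean of 111 CPM, and its values are uncertain because no source used here gives the strand setting of the counting.

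Among the actins, ACTA2, which encodes smooth muscle alpha-actin, was the one with a large difference. It was at 6.91, 8.47 and 5.97 CPM in Lo19S cells with bortezomib, against 14.9, 20.1 and 18.1 CPM in control cells with bortezomib. ACTA2 under DMSO was at 46.3, 48.9 and 50.2 CPM in Lo19S cells, against 159.9, 177 and 182 CPM in control cells. The groups did not overlap within a treatment, and the log2 fold change was -1.37 under bortezomib (SE 0.132, adjusted p = 1.05e-11) and -1.84 under DMSO (SE 0.06). ACTA2 overlaps STAMBPL1 and FAS on the opposite strand, at means of 5.92 and 29.2 CPM, which leaves its values uncertain in the same way.

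ACTB and ACTG1 encode the cytoplasmic beta- and gamma-actins of all cells. ACTB was at 1593, 1609 and 1537 CPM in Lo19S cells with bortezomib, against 1753, 1838 and 1780 CPM in control cells with bortezomib. ACTB under DMSO was at 2120, 2121 and 2053 CPM in Lo19S cells, against 2404, 2467 and 2716 CPM in control cells. Lo19S libraries were lower within each treatment, by -0.18 on the log2 scale under bortezomib (SE 0.035, adjusted p = 2.79e-05) and -0.27 under DMSO (SE 0.034). ACTG1 was at 999, 1027 and 993 CPM in Lo19S cells with bortezomib, against 1045, 1061 and 1045 CPM in control cells with bortezomib. ACTG1 under DMSO was at 929.6, 933 and 924 CPM in Lo19S cells, against 1098, 1117 and 1189 CPM in control cells. The ACTG1 groups did not overlap in either treatment, with a log2 difference of -0.29 under DMSO (SE 0.032), but that of -0.06 under bortezomib did not pass the test (SE 0.032, adjusted p = 0.115) and was 0.05 with library totals. Actin genes and their pseudogenes are near-identical, and the handling of reads that match several of them is not given in the sources used here.

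Of the myosin genes, MYL9, which encodes the regulatory light chain, and MYH9, which encodes the heavy chain of non-muscle myosin IIA, were lower in Lo19S cells under both treatments. MYL9 averaged 85.2 ± 2.97 CPM in Lo19S cells and 157 ± 7.05 CPM in control cells with bortezomib (SD, n = 3 each), a log2 fold change of -0.89 (SE 0.053, edgeR adjusted p = 4e-18). MYL9 under DMSO averaged 167.5 ± 6.13 CPM in Lo19S cells and 266 ± 21.7 CPM in control cells (SD, n = 3 each), or -0.66 (SE 0.045). MYH9 differed by -0.45 under bortezomib (SE 0.035, adjusted p = 5.33e-15) and by -0.30 under DMSO (SE 0.035). MYLK, which encodes the kinase of the light chain, was at 2.38, 2.77 and 2.02 CPM in Lo19S cells with bortezomib, against 2.68, 3.00 and 2.14 CPM in control cells with bortezomib. MYLK under DMSO was at 7.39, 8.07 and 7.25 CPM in Lo19S cells, against 9.65, 10.96 and 11.6 CPM in control cells. The MYLK groups overlapped under bortezomib (log2 -0.18, SE 0.245, adjusted p = 0.587) but not under DMSO (-0.49, SE 0.127).

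Levels of the tropomyosins, which coat actin filaments, and of CALD1, which encodes caldesmon, an inhibitor of actomyosin sliding, were called lower in Lo19S cells for 3 of 4 genes under each treatment, TPM4 being the exception. The share of all genes called lower was 21.2% under bortezomib and 13% under DMSO, and the DMSO falls were known when the genes were listed. CALD1 averaged 38.7 ± 2.6 CPM in Lo19S cells and 75.5 ± 3.28 CPM in control cells with bortezomib, and 29.8 ± 2.33 CPM in Lo19S cells and 57.7 ± 3.84 CPM in control cells with DMSO (SD, n = 3 each). Its log2 fold change was -0.97 under bortezomib (SE 0.067, edgeR adjusted p = 1.11e-16) and -0.96 under DMSO (SE 0.068). TPM1 differed by -0.45 under bortezomib (SE 0.041, adjusted p = 8.33e-13) and by -0.65 under DMSO (SE 0.037). TPM2 differed by -0.63 under bortezomib (SE 0.152, adjusted p = 0.000612) and by -0.37 under DMSO (SE 0.137), a call lost without replicate 2 (-0.40) or 3 (-0.285) of control DMSO or replicate 1 (-0.34) or 2 (-0.35) of Lo19S DMSO. TPM4 had at most 4 counts per library with bortezomib, and its difference between states did not pass the test there (-0.18, SE 0.815, adjusted p = 0.888). Under DMSO, TPM4 differed by -0.485 (SE 0.198), which did not pass the threshold either, although it did without control DMSO replicate 3 (-0.62).

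**Figure D2:**
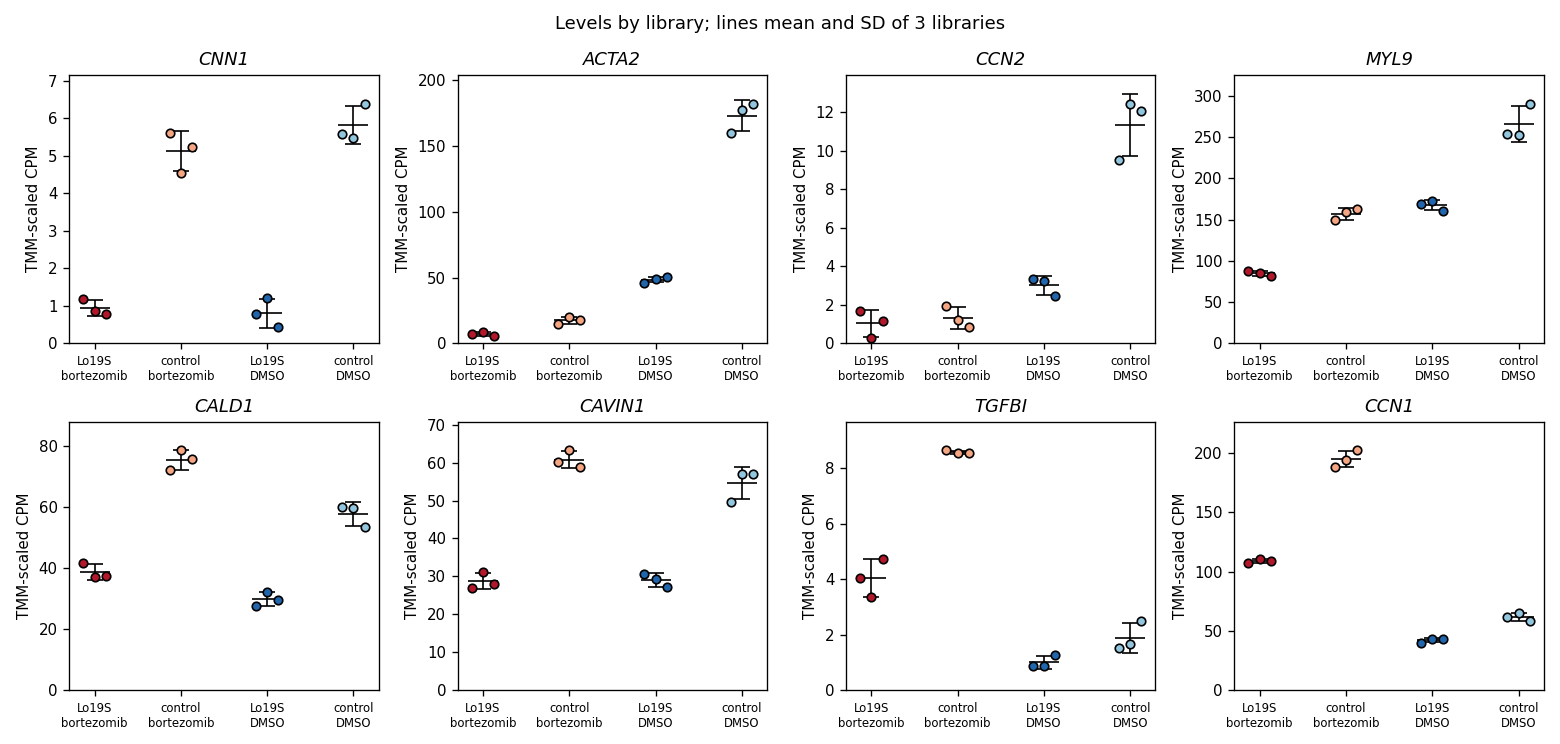
TMM-scaled CPM of 8 genes in each of the 12 libraries, with the 4 groups along the horizontal axis; points are libraries and lines the mean and SD of 3. In CNN1, CALD1 and CAVIN1 both Lo19S groups lie below both control groups, in ACTA2 and MYL9 levels are lower in Lo19S than in control cells and lower with bortezomib than with DMSO, and in CCN2 the states are apart under DMSO and overlap under bortezomib.

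The 6 genes of crosslinkers and adhesions were all called lower in Lo19S cells under bortezomib, and 5 of the 6 under DMSO. Among all genes tested 21.2% were called lower under bortezomib and 13% under DMSO. The DMSO falls were known when the genes were listed. FLNA encodes filamin A, which ties filaments into networks, and it was at 828, 891 and 844 CPM in Lo19S cells with bortezomib, against 1163, 1175 and 1182 CPM in control cells with bortezomib. FLNA under DMSO was at 516, 506 and 484 CPM in Lo19S cells, against 544, 565 and 642 CPM in control cells. The FLNA groups did not overlap in either treatment, with a log2 fold change of -0.46 under bortezomib (SE 0.042, adjusted p = 1.43e-10) and -0.215 under DMSO (SE 0.043). ZYX, which encodes the adhesion protein zyxin, was at 66.0, 70.2 and 62.9 CPM in Lo19S cells with bortezomib, against 84.6, 92.9 and 92.3 CPM in control cells with bortezomib. ZYX under DMSO was at 37.1, 34.3 and 35.4 CPM in Lo19S cells, against 38.7, 42.5 and 44.4 CPM in control cells. The ZYX libraries of Lo19S cells were the lower ones within each treatment, by -0.45 under bortezomib (SE 0.059, adjusted p = 1.62e-08) and -0.23 under DMSO (SE 0.068), the second call being lost without Lo19S DMSO replicate 2 (-0.20). VCL, which encodes vinculin, the link from adhesions to actin, differed by -0.48 under bortezomib (SE 0.035, adjusted p = 1.01e-15) and -0.57 under DMSO, and FHL2, an SRF target that encodes a LIM protein of adhesions and the nucleus, by -0.48 (SE 0.06, adjusted p = 6.32e-09) and -0.65. ACTN1, which encodes alpha-actinin-1, differed by -0.33 under bortezomib (SE 0.04, adjusted p = 2.27e-09). ACTN4, its paralog, differed by -0.10 (SE 0.043, adjusted p = 0.0469), a call that was lost without any of the 6 bortezomib libraries, at adjusted p of 0.0627 to 0.157, and a difference that became 0.01 with library totals. VCL overlaps AP3M1, at a mean of 216 CPM, and ZYX overlaps EPHA1, at 17.4 CPM, each on the opposite strand.

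Under bortezomib 3 of the 7 targets of YAP and TEAD were called lower in Lo19S cells and 1 higher, where 21.2% of all genes were called lower and 22% higher. CCN1, which encodes a secreted matrix signalling protein, was at 107.5, 111 and 109 CPM in Lo19S cells with bortezomib, against 189, 194 and 202 CPM in control cells with bortezomib. CCN1 under DMSO was at 40.2, 42.9 and 43.4 CPM in Lo19S cells, against 61.7, 64.9 and 58.7 CPM in control cells. Its groups did not overlap in either treatment, and the log2 fold change was -0.84 under bortezomib (SE 0.047, adjusted p = 3.34e-20) and -0.55 under DMSO (SE 0.057). CCN2, which encodes the related connective tissue growth factor, was at 1.67, 0.292 and 1.15 CPM in Lo19S cells with bortezomib, against 1.95, 1.22 and 0.832 CPM in control cells with bortezomib. CCN2 under DMSO was at 3.34, 3.26 and 2.45 CPM in Lo19S cells, against 9.50, 12.5 and 12.1 CPM in control cells. The states were far apart under DMSO (log2 -1.87, SE 0.176) and overlapped under bortezomib, where the 6 libraries held 2 to 16 counts and the difference of -0.27 did not pass the test (SE 0.394, adjusted p = 0.613).

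ANKRD1, a nuclear ankyrin repeat protein and a widely used readout of YAP, did not separate the states in either treatment. It was at 9.30, 8.03 and 6.26 CPM in Lo19S cells with bortezomib, against 7.31, 9.22 and 6.65 CPM in control cells with bortezomib. ANKRD1 under DMSO was at 1.59, 1.116 and 1.17 CPM in Lo19S cells, against 1.28, 1.115 and 1.11 CPM in control cells. The log2 difference was -0.03 under bortezomib (SE 0.16, adjusted p = 0.917) and 0.15 under DMSO (SE 0.323), where the libraries held only 11 to 20 counts each.

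AMOTL2, which encodes an angiomotin-like protein that binds YAP and is itself a target, was singled out after its values were seen, because it was lower in Lo19S cells under DMSO and higher under bortezomib. It was at 139.8, 150.2 and 135 CPM in Lo19S cells with bortezomib, against 95.9, 102 and 94.2 CPM in control cells with bortezomib. AMOTL2 under DMSO was at 134, 131 and 127 CPM in Lo19S cells, against 139.7, 145 and 161.5 CPM in control cells. The groups did not overlap in either treatment, and the log2 fold change was 0.53 under bortezomib (SE 0.053, adjusted p = 1.45e-11) and -0.18 under DMSO (SE 0.048). AMOTL1, its paralog, differed by -0.01 under bortezomib (SE 0.101, adjusted p = 0.932) and by -0.26 under DMSO (SE 0.079), a call that ended without replicate 2 of control DMSO (-0.22) or replicate 1 of Lo19S DMSO (-0.18). LATS2, the Hippo kinase that restrains YAP and is induced by it, differed by -0.385 under bortezomib (SE 0.07, adjusted p = 1.04e-05) and by -0.06 under DMSO (SE 0.075). CRIM1, which encodes a membrane protein with cysteine-rich repeats, differed by -0.13 under bortezomib (SE 0.052, adjusted p = 0.0401), a call lost without any of the 6 bortezomib libraries at adjusted p of 0.0669 to 0.106. CRIM1 overlaps FEZ2 on the opposite strand, at a mean of 22.6 CPM, so its values are uncertain.

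TGFBI, a secreted matrix protein named for its induction by TGF-beta, was at 4.05, 3.36 and 4.75 CPM in Lo19S cells with bortezomib, against 8.65, 8.56 and 8.56 CPM in control cells with bortezomib. TGFBI under DMSO was at 0.874, 0.859 and 1.28 CPM in Lo19S cells, against 1.51, 1.67 and 2.503 CPM in control cells. TGFBI did not overlap between states in either treatment, with a log2 fold change of -1.03 under bortezomib (SE 0.171, adjusted p = 2.25e-06) and -0.92 under DMSO (SE 0.301). Leaving out control DMSO replicate 3 (-0.68) or Lo19S DMSO replicate 1 or 2 (-0.83 each) ended the DMSO call. CAVIN1, which encodes the coat protein of caveolae, was at 27.1, 31.2 and 28.0 CPM in Lo19S cells with bortezomib, against 60.2, 63.2 and 58.9 CPM in control cells with bortezomib. CAVIN1 under DMSO was at 30.8, 29.3 and 27.1 CPM in Lo19S cells, against 49.7, 57.0 and 57.0 CPM in control cells. The 6 Lo19S libraries lay below the 6 control libraries, with a log2 fold change of -1.09 under bortezomib (SE 0.073, adjusted p = 3.06e-17) and -0.90 under DMSO (SE 0.069). CAV1, whose protein forms caveolae together with that of CAVIN1, had 0, 0 and 2 counts in Lo19S cells with bortezomib, against 2, 3 and 0 in control cells with bortezomib. CAV1 under DMSO had 2, 1 and 0 counts in Lo19S cells, against 6, 2 and 3 in control cells, too few for a test.

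**Figure D3:**
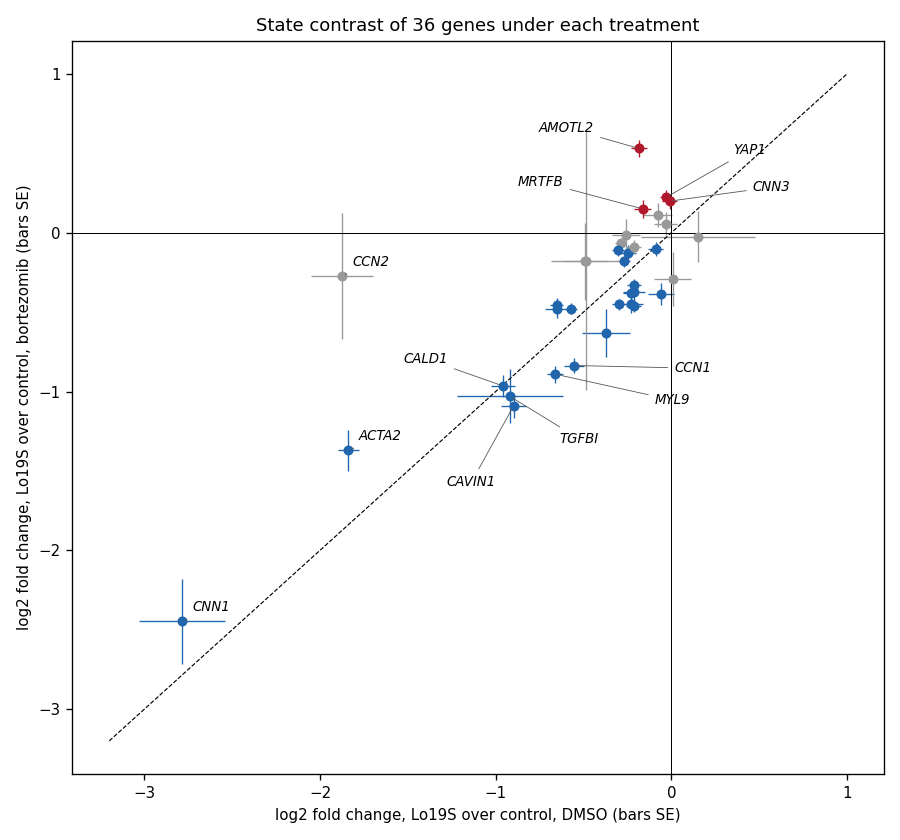
Log2 fold change of Lo19S over control cells for 36 genes under DMSO (horizontal) and under bortezomib (vertical), with SE bars; blue points were called lower and red points higher under bortezomib, grey points were not called there, and the dashed line marks equal values. CNN1 and ACTA2 are low on both axes, CCN2 is low on the DMSO axis and not called on the other, and AMOTL2, MRTFB, YAP1 and CNN3 lie above 0 under bortezomib.

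Among the transcription factors and coactivators, SRF alone was called lower in Lo19S cells under bortezomib, where 21.2% of all genes were. SRF was at 87.0, 86.1 and 81.4 CPM in Lo19S cells with bortezomib, against 111, 107 and 109.7 CPM in control cells with bortezomib. SRF under DMSO was at 56.4, 58.6 and 52.4 CPM in Lo19S cells, against 59.3, 61.1 and 74.5 CPM in control cells. The SRF groups did not overlap, with a log2 fold change of -0.37 under bortezomib (SE 0.06, adjusted p = 1.93e-06) and -0.21 under DMSO (SE 0.064), a call that ended without replicate 3 of control DMSO (-0.105) or of Lo19S DMSO (-0.17). MRTFA was at 50.5, 48.0 and 47.4 CPM in Lo19S cells with bortezomib, against 41.1, 46.2 and 47.4 CPM in control cells with bortezomib. MRTFA under DMSO was at 28.5, 24.0 and 23.1 CPM in Lo19S cells, against 26.9, 24.2 and 29.1 CPM in control cells. Its states differed by 0.11 under bortezomib, which did not pass the test (SE 0.074, adjusted p = 0.229). The lowest Lo19S library and the highest control library were level there at 47.4 CPM. Under DMSO the states overlapped and differed by -0.08 (SE 0.083). MRTFA overlaps SGSM3 on the opposite strand, at a mean of 68.6 CPM, so its level is uncertain.

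MRTFB was at 64.2, 65.7 and 64.8 CPM in Lo19S cells with bortezomib, against 60.6, 53.3 and 61.7 CPM in control cells with bortezomib. MRTFB under DMSO was at 94.0, 93.8 and 89.4 CPM in Lo19S cells, against 103, 105.5 and 102 CPM in control cells. It was higher in Lo19S cells under bortezomib by 0.15 (SE 0.059, adjusted p = 0.0355), a call lost without control bortezomib replicate 2 (0.09, adjusted p = 0.312) or without any of the 3 Lo19S bortezomib libraries (adjusted p of 0.0527 to 0.0847). The DMSO difference of -0.16 (SE 0.049) lost its call without Lo19S DMSO replicate 3 (-0.14). YAP1 was at 189, 198 and 197 CPM in Lo19S cells with bortezomib, against 164, 162.5 and 174 CPM in control cells with bortezomib. YAP1 under DMSO was at 228, 226 and 237 CPM in Lo19S cells, against 238.5, 242 and 224 CPM in control cells. YAP1 libraries of the states were apart under bortezomib (log2 0.22, SE 0.043, adjusted p = 2.22e-05) and overlapped under DMSO (-0.03, SE 0.039).

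WWTR1 was at 57.2, 54.3 and 52.7 CPM in Lo19S cells with bortezomib, against 57.5, 53.1 and 46.7 CPM in control cells with bortezomib. WWTR1 under DMSO was at 62.4, 54.2 and 54.1 CPM in Lo19S cells, against 56.5, 64.0 and 54.7 CPM in control cells. The WWTR1 groups overlapped in both treatments, with differences of 0.06 under bortezomib (SE 0.073, adjusted p = 0.565) and -0.03 under DMSO (SE 0.067). TEAD1 was at 145, 153 and 140.3 CPM in Lo19S cells with bortezomib, against 154.5, 152 and 158 CPM in control cells with bortezomib. TEAD1 under DMSO was at 116, 113 and 120.2 CPM in Lo19S cells, against 131, 137 and 138 CPM in control cells. TEAD1 was apart under DMSO (log2 -0.215, SE 0.044) and overlapped under bortezomib (-0.09, SE 0.045, adjusted p = 0.0961).

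**Figure D4:**
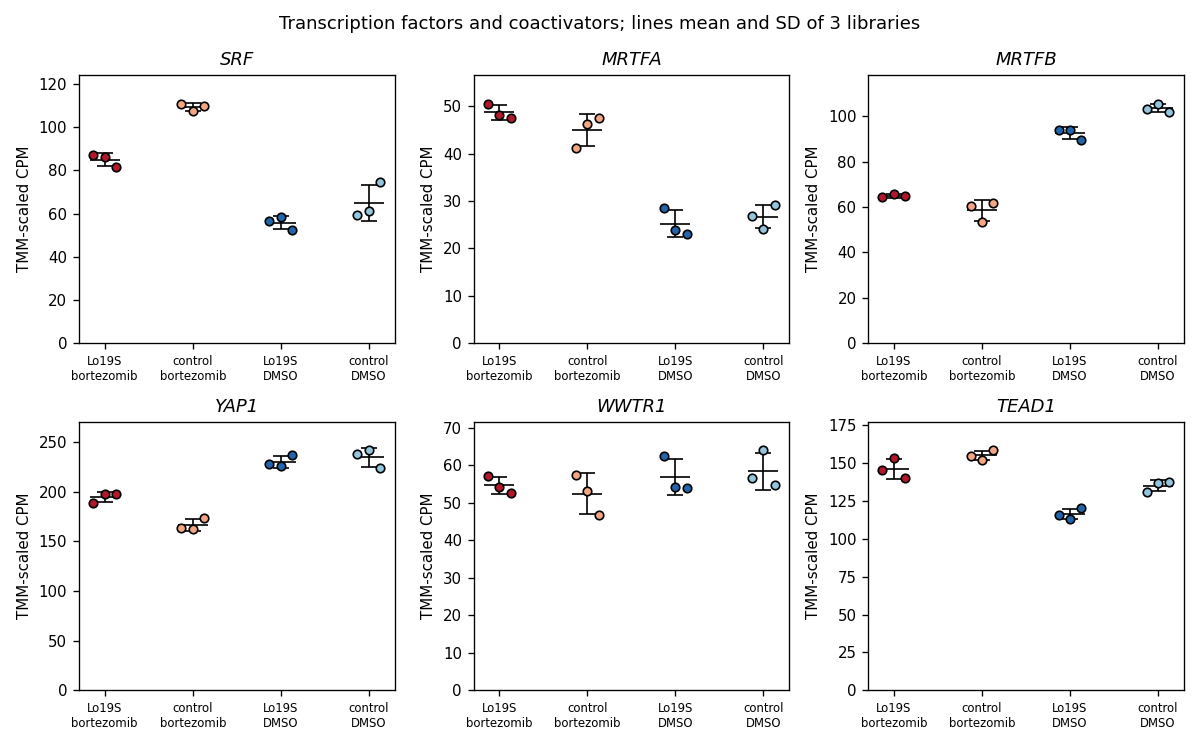
TMM-scaled CPM of the 6 transcription factors and coactivators in each of the 12 libraries, with the 4 groups along the horizontal axis; points are libraries and lines the mean and SD of 3. Both bortezomib groups lie above both DMSO groups for SRF and MRTFA and below them for MRTFB and YAP1, whereas the 4 groups of WWTR1 overlap.

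Markers of other cell types that use the contractile genes were low except for COL1A1, and their sums differed between the states. The 5 smooth muscle markers, of which 3 passed the filter on low counts, summed to 1.31 to 2.19 CPM in Lo19S cells with bortezomib, against 2.32 to 3.11 CPM in control cells with bortezomib, and under DMSO to 2.13 to 2.83 CPM in Lo19S cells, against 3.39 to 5.75 CPM in control cells. The 6 myoepithelial markers, of which 1 passed, summed to 1.87 to 2.38 CPM in Lo19S cells with bortezomib, against 3.56 to 4.67 CPM in control cells with bortezomib, and under DMSO to 2.58 to 3.02 CPM in Lo19S cells, against 4.08 to 5.35 CPM in control cells. The 8 fibroblast markers, of which COL1A1 and LUM passed, summed to 44.2 to 47.0 CPM in Lo19S cells with bortezomib, against 63.3 to 69.7 CPM in control cells with bortezomib, and under DMSO to 32.9 to 33.7 CPM in Lo19S cells, against 25.9 to 31.3 CPM in control cells. With bortezomib COL1A1 was at 39.8 to 42.6 CPM in Lo19S cells, against 61.2 to 67.5 CPM in control cells. LUM went the other way there, at 3.89 to 4.17 CPM in Lo19S cells, against 1.54 to 1.83 CPM in control cells. LUM was also higher in Lo19S cells under DMSO, at 3.84 to 4.29 CPM, against 1.21 to 2.71 CPM. MYH11 is in the smooth muscle and the myoepithelial lists and stayed at or below 1.02 CPM, and DES at or below 0.32 CPM. Their part in the state differences was not tested.

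Bortezomib moved these genes in both directions, and most went the same way in both states. In Lo19S cells 16 of 36 rose and 15 fell, where 77.5% of all genes were called, 37.8% higher and 39.7% lower with bortezomib. In control cells 15 rose and 18 fell, where 81.4% of all genes were called, 39.2% higher and 42.2% lower. The counts of these genes lay near the shares of all genes. The medians were -0.05 in Lo19S cells and -0.13 in control cells, against -0.02 and -0.04 over all genes tested. With library totals the median of all genes moved by -0.29 in Lo19S cells and by -0.38 in control cells, the share of higher calls among all called genes became 32% and 30.6%, against 48.7% and 48.1% with TMM, and the counts for these genes became 10 up and 22 down in Lo19S cells and 10 up and 24 down in control cells. The directions below are relative to TMM scaling. In both states 14 genes rose and 15 fell, and these responses share no library. The 14 are 87.5% of those that rose in Lo19S cells and 93.3% of those in control cells, and the 15 are 100% of those that fell in Lo19S cells and 83.3% of those in control cells. Over all genes tested the corresponding shares were 89.9% and 86.7% for rises and 91.4% and 86% for falls, so the agreement between states was close to that of genes at large. Each response shares its DMSO libraries with the state comparison under DMSO.

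Genes of crosslinkers and adhesions mostly rose. Of the 6, 5 were called higher with bortezomib in each state and 0 lower, or 3 higher and 2 lower in Lo19S cells and 3 higher and 3 lower in control cells with library totals. With TMM scaling 37.8% of all genes were called higher and 39.7% lower in Lo19S cells, and 39.2% and 42.2% in control cells. ZYX rose by 0.89 in Lo19S cells (SE 0.065, adjusted p = 4.44e-17) and by 1.11 in control cells (SE 0.061, adjusted p = 7.64e-22), and its bortezomib libraries lay above its DMSO libraries in both states. FLNA rose by 0.77 in Lo19S cells (SE 0.043, adjusted p = 1.02e-16) and by 1.01 in control cells (SE 0.042, adjusted p = 3.79e-20). FHL2 rose by 0.73 in Lo19S cells and by 0.56 in control cells. VCL rose by 0.28 and ACTN1 by 0.13 in Lo19S cells, and by 0.19 and 0.25 in control cells, but with library totals VCL and ACTN1 turned to -0.004 and -0.16 in Lo19S cells and to -0.19 and -0.135 in control cells. The ACTN1 call in Lo19S cells was also lost without Lo19S bortezomib replicate 3 (0.09, adjusted p = 0.0835). ACTN4 was called in neither state, at -0.07 in Lo19S cells (SE 0.042, adjusted p = 0.109) and -0.06 in control cells (SE 0.042, adjusted p = 0.194), although it passed in control cells without control DMSO replicate 2 (-0.10, adjusted p = 0.0248).

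Calponins, transgelins and the smooth muscle actin mostly fell. Of the 5 calponins and transgelins, 4 were called lower with bortezomib in each state, CNN1 being the exception with 0.15 in Lo19S cells (SE 0.386, adjusted p = 0.724) and -0.18 in control cells (SE 0.174, adjusted p = 0.331). The share of all genes called lower was 39.7% in Lo19S cells and 42.2% in control cells. CNN2 fell by 1.89 on the log2 scale in Lo19S cells (SE 0.052, adjusted p = 7.64e-34) and by 1.75 in control cells (SE 0.05, adjusted p = 1.99e-33). TAGLN fell by 1.51 in Lo19S cells (SE 0.137, adjusted p = 5.86e-14) and by 1.21 in control cells (SE 0.134, adjusted p = 2.28e-11). CNN3 fell by 0.67 and TAGLN2 by 0.35 in Lo19S cells, and by 0.88 and 0.54 in control cells. Among the actins ACTA2 had the largest change: it fell by 2.82 in Lo19S cells (SE 0.104, adjusted p = 5.92e-27) and by 3.28 in control cells (SE 0.075, adjusted p = 2.55e-35). ACTB fell by 0.41 in Lo19S cells (SE 0.035, adjusted p = 9.34e-15) and by 0.50 in control cells (SE 0.034, adjusted p = 8.47e-18). ACTG1 went apart between states, with 0.115 in Lo19S cells (SE 0.032, adjusted p = 0.0013; -0.17 with library totals) and -0.11 in control cells (SE 0.032, adjusted p = 0.00164).

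Within the myosin genes the heavy chain rose while the light chain and its kinase fell. MYH9 rose by 0.77 in Lo19S cells (SE 0.035, adjusted p = 2.15e-24) and by 0.915 in control cells (SE 0.035, adjusted p = 7.9e-28). MYL9 fell by 0.98 in Lo19S cells (SE 0.052, adjusted p = 2.32e-21) and by 0.76 in control cells (SE 0.047, adjusted p = 4.95e-19). MYLK fell by 1.71 in Lo19S cells (SE 0.183, adjusted p = 1.06e-11) and by 2.02 in control cells (SE 0.172, adjusted p = 5.12e-15), with no overlap between its bortezomib and DMSO libraries. TPM4, a tropomyosin of non-muscle cells, was at 0, 0.292 and 0.288 CPM in Lo19S cells with bortezomib, against 3.66, 3.18 and 2.99 CPM in Lo19S cells with DMSO. In control cells it was at 0.244, 0.333 and 0.119 CPM with bortezomib, against 4.67, 5.57 and 3.62 CPM with DMSO. The bortezomib libraries held 6 TPM4 counts in all in Lo19S cells, against 111 with DMSO, and 6 in all in control cells, against 161 with DMSO. From these sums TPM4 was 16.0-fold lower with bortezomib in Lo19S cells (exact 95% counting interval 7.14 to 44.6) and 19.7-fold lower in control cells (8.88 to 54.6). The fitted log2 fold changes were -3.92 in Lo19S cells (SE 0.417, adjusted p = 8.24e-12; -4.52 without Lo19S bortezomib replicate 3) and -4.23 in control cells (SE 0.389, adjusted p = 7.78e-14). TPM1 fell by 0.65 in Lo19S cells and by 0.85 in control cells, TPM2 was called in neither, and CALD1 rose by 0.38 in Lo19S cells (SE 0.075, adjusted p = 1.36e-05) and by 0.385 in control cells (SE 0.061, adjusted p = 2.1e-07). With library totals the change of CALD1 was 0.09 in Lo19S cells and 0.004 in control cells and no longer called.

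**Figure D5:**
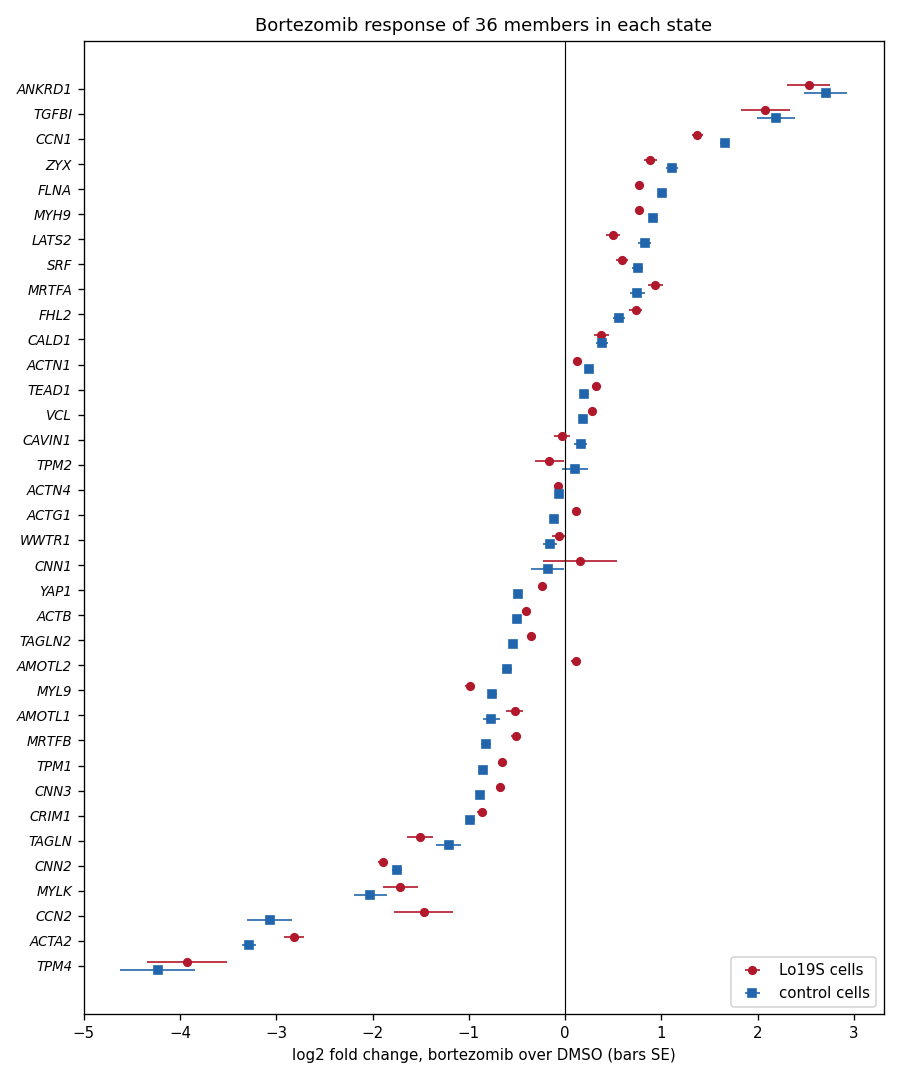
Log2 fold change of bortezomib over DMSO for 36 genes, in Lo19S cells (red circles) and in control cells (blue squares), with SE bars and genes ordered by the value in control cells. ANKRD1, TGFBI and CCN1 are at the top in both states and TPM4 and ACTA2 at the bottom, CCN2 lies further left in control cells, and AMOTL2 lies on opposite sides of 0.

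With bortezomib 4 of the 7 targets of YAP and TEAD were higher and 3 lower in Lo19S cells, and 3 higher and 4 lower in control cells. Genes at large also split about evenly, at 37.8% higher and 39.7% lower in Lo19S cells and 39.2% and 42.2% in control cells. CCN1 and CCN2 went in opposite directions. ANKRD1 rose most, by 2.53 in Lo19S cells (SE 0.22, adjusted p = 1.61e-14) and by 2.71 in control cells (SE 0.226, adjusted p = 3.29e-15), from 11 to 20 counts per library with DMSO. CCN1 rose by 1.38 in Lo19S cells (SE 0.054, adjusted p = 2.38e-27) and by 1.66 in control cells (SE 0.049, adjusted p = 5.63e-33). LATS2 rose by 0.50 in Lo19S cells (SE 0.074, adjusted p = 4.89e-08) and by 0.83 in control cells (SE 0.071, adjusted p = 7.39e-15). CCN2, whose window holds GGAATG as that of ANKRD1 does, fell by 1.47 in Lo19S cells (SE 0.307, adjusted p = 3.63e-05) and by 3.07 in control cells (SE 0.23, adjusted p = 3.14e-16). CRIM1 fell by 0.87 and AMOTL1 by 0.52 in Lo19S cells, and by 0.98 and 0.77 in control cells. AMOTL2 fell by 0.61 in control cells (SE 0.051, adjusted p = 9.26e-15) and was at 0.11 in Lo19S cells (SE 0.049, adjusted p = 0.0424), a call lost without Lo19S bortezomib replicate 1 (adjusted p = 0.0534) or 2 (0.105) or Lo19S DMSO replicate 2 (0.0814) or 3 (0.135), and -0.18 with library totals.

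TGFBI rose by 2.08 in Lo19S cells (SE 0.259, adjusted p = 6.6e-10) and by 2.19 in control cells (SE 0.194, adjusted p = 2.34e-14), from 10 to 27 counts per library with DMSO. CAVIN1 was at -0.03 in Lo19S cells (SE 0.079, adjusted p = 0.728) and at 0.16 in control cells (SE 0.064, adjusted p = 0.0197), a call lost without control DMSO replicate 1 (adjusted p = 0.218) or control bortezomib replicate 2 (0.101) and turned to -0.22 with library totals. Of the factors, MRTFA rose by 0.94 in Lo19S cells (SE 0.078, adjusted p = 3.43e-15) and by 0.75 in control cells (SE 0.079, adjusted p = 5.25e-12), and SRF by 0.595 (SE 0.063, adjusted p = 2.17e-11) and 0.75 (SE 0.06, adjusted p = 3.69e-15). MRTFB, the paralog of MRTFA, fell by 0.51 in Lo19S cells (SE 0.054, adjusted p = 5.38e-12) and by 0.82 in control cells (SE 0.054, adjusted p = 7.53e-19). YAP1 fell by 0.24 in Lo19S cells (SE 0.04, adjusted p = 6.77e-07) and by 0.49 in control cells (SE 0.041, adjusted p = 3.14e-15). TEAD1 rose by 0.32 in Lo19S cells (SE 0.045, adjusted p = 9.49e-09) and by 0.20 in control cells (SE 0.044, adjusted p = 6.36e-05), but with library totals these were 0.04 and -0.18, the first no longer called. WWTR1 was at -0.07 in Lo19S cells (SE 0.07, adjusted p = 0.389) and at -0.15 in control cells (SE 0.071, adjusted p = 0.0427), a call lost without control DMSO replicate 2 (adjusted p = 0.264) or control bortezomib replicate 2 (0.0739) or 3 (0.358).

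Genes with an exact CArG box in the window searched were found on both sides of the bortezomib response. CNN2, MYLK and TPM4 fell in both states, and FLNA, FHL2, ACTN1 and SRF rose in both with TMM scaling, ACTN1 turning negative with library totals. The eighth, ACTG1, was at 0.115 in Lo19S cells and -0.11 in control cells. Genes with GGAATG likewise included ANKRD1 and MYH9, which rose, and CCN2, ACTA2 and CNN3, which fell. The sequences of CCN2 and ANKRD1 shown above thus hold the same motif upstream of genes with opposite responses. Genes at large also lay on both sides, at 37.8% higher and 39.7% lower in Lo19S cells and 39.2% and 42.2% in control cells. Nothing about the motifs is therefore read from these directions.

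Across the 4 groups ACTA2 had its lowest libraries, 5.97 to 8.47 CPM, in Lo19S cells with bortezomib and its highest, 159.9 to 182 CPM, in control cells with DMSO.

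The bortezomib response of Lo19S cells minus that of control cells passed the threshold for 14 of 36 genes, 9 positive and 5 negative. Over all genes tested 27.8% passed, 14.5% positive and 13.4% negative. It contains the DMSO comparison of states and is given as a description. With library totals the split became 16 positive and 1 negative, and without control DMSO replicate 3 it became 10 and 10. CCN2 had the largest value, 1.6 (SE 0.447), from -1.47 in Lo19S cells and -3.07 in control cells. AMOTL2 had 0.71 (SE 0.071) and ACTA2 0.47 (SE 0.153). Negative values were those of LATS2 at -0.33 (SE 0.102), CCN1 at -0.28 (SE 0.074), FLNA at -0.24 (SE 0.06), MYL9 at -0.23 (SE 0.07) and MYH9 at -0.15 (SE 0.05). The corresponding values of ANKRD1 (-0.18, SE 0.361) and TGFBI (-0.11, SE 0.379) did not pass, with errors that leave room for sizeable differences.

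Other genes of these pathways were read from 4 lists. In the comparison of Lo19S with control cells under bortezomib, where 22% of all genes were called higher and 21.2% lower, the 28 tested genes of the actin, myosin and SRF/MRTF list held 7 higher and 11 lower of 30 listed, and the 22 of the Hippo pathway 5 higher and 7 lower. With library totals these became 11 and 8, and 11 and 1, so their balance depends on the scaling. The 15 tested of 20 other YAP/TEAD targets held 5 higher and 6 lower, and the 12 tested of 20 genes of caveolae, the CCN family and TGF-beta 0 higher and 3 lower, or 7 and 4, and 2 and 1, with library totals. The list medians lay between -0.17 and 0.06, against -0.31 for the genes described above. Those genes were listed with their DMSO falls known, so nothing is read from this difference. Under DMSO 11.7% of all genes were called higher and 13% lower. There the same lists, in the same order, held 2 higher and 10 lower, 0 and 5, 4 and 4, and 1 and 5. With library totals these became 2 and 9, 0 and 4, 4 and 4, and 1 and 5.

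Named genes of these lists were those with the largest called changes. Under bortezomib, AJUBA, a LIM adaptor that binds LATS kinases, was higher in Lo19S cells at 34.4 CPM, against 22.7 CPM in control cells (log2 0.61, SE 0.08, adjusted p = 1.59e-08), and FRMD6, an upstream Hippo scaffold, was lower at 14.97 CPM, against 24.8 CPM (-0.72, SE 0.099, adjusted p = 3.9e-08). TNS3, a tensin of adhesions, was higher by 0.65 (SE 0.101, adjusted p = 6.94e-07) and NUAK2, a kinase that promotes myosin activity, lower by -1.17 at 0.68 CPM, against 1.48 CPM (SE 0.397, adjusted p = 0.0146). LIMA1, an actin-bundling protein, was higher by 0.46 (SE 0.057, adjusted p = 3.53e-09) and EGR1, an immediate early SRF target, lower by -0.935 at 1.25 CPM, against 2.499 CPM (SE 0.3, adjusted p = 0.00951). LTBP1, which stores latent TGF-beta in the matrix, was lower by -0.38 (SE 0.056, adjusted p = 3.07e-07). Under DMSO the largest falls in Lo19S cells were those of ACTG2, an enteric smooth muscle actin (log2 -1.32, SE 0.329, at 0.813 CPM, against 2.11 CPM), TGFB2, a TGF-beta ligand (-0.74, SE 0.104), TGFBR3, a TGF-beta coreceptor (-0.58, SE 0.2) and LIMD1, a LIM adaptor (-0.25, SE 0.056). The largest rises there were those of CCDC80, a matrix protein (1.17, SE 0.197), MYH14, the heavy chain of non-muscle myosin IIC (0.98, SE 0.046), and SKIL, a repressor of SMAD signalling (0.19, SE 0.058), and the Hippo list had no called rise.

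With bortezomib, 37.8% of all genes were called higher and 39.7% lower in Lo19S cells, and 39.2% and 42.2% in control cells. The actin, myosin and SRF/MRTF list held 8 higher and 14 lower of 28 tested in Lo19S cells and 9 and 15 in control cells. With library totals these became 4 and 18, and 6 and 21. The Hippo list held 11 higher and 7 lower of 22 in Lo19S cells and 9 and 9 in control cells, and with library totals 6 and 12, and 4 and 15. The other YAP/TEAD targets held 7 higher and 5 lower of 15 in Lo19S cells and 7 and 7 in control cells, and with library totals 6 and 6, and 7 and 7. The list of caveolae, the CCN family and TGF-beta held 3 higher and 7 lower of 12 in Lo19S cells and 2 and 7 in control cells, and with library totals 1 and 8, and 1 and 11. GADD45A, a gene of stress and growth arrest, rose most in both states, with 99.5 CPM with bortezomib, against 5.22 CPM with DMSO, in Lo19S cells (log2 4.26, SE 0.09, adjusted p = 1.05e-38) and 158 CPM, against 3.65 CPM, in control cells (5.44, SE 0.09, adjusted p = 2e-43).

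SAV1, the scaffold of the Hippo kinases, rose with bortezomib by 1.03 in Lo19S cells and 1.17 in control cells, and SKIL by 0.72 and 0.91. MYH14 led the rises of the actin and myosin list in control cells (1.87, SE 0.045, adjusted p = 1.14e-36) and FLNC, filamin C, in Lo19S cells (1.72, SE 0.172, adjusted p = 1.44e-12). TNS3 had a log2 fold change of -2.52 in Lo19S cells and -3.37 in control cells, and AMOT, an angiomotin at a mean of 3.58 CPM or less, had -3.31 in Lo19S cells and -2.59 in control cells. SMAD7, an inhibitor of TGF-beta signalling, had the largest fall of its list in Lo19S cells at -2.98 (SE 0.322) and TGFB3 in control cells at -2.99 (SE 0.086). LMOD1, a smooth muscle leiomodin, had 0 counts in Lo19S cells with bortezomib and 27 over the group with DMSO. With a floor of 3 counts over the group in place of 0 it was 7.8-fold lower, and the exact 95% counting interval reached down to 5.92-fold. EGR3, an immediate early gene, had 2 counts in control cells with bortezomib, against 47 with DMSO, and was 17.3-fold lower (exact 95% counting interval 4.53 to 147). For the difference of responses, given as above without p-values, the largest called values of the lists were AJUBA (0.79, SE 0.094) and FRMD6 (-0.63, SE 0.143), TGFB2 (1.14, SE 0.166) and CCDC80 (-1.58, SE 0.258), TMSB4X, a thymosin that holds actin monomers (0.46, SE 0.086), and MYH14 (-0.70, SE 0.061), and SMAD4, the shared partner of the SMAD factors (0.36, SE 0.123).

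Levels of different genes were compared per kilobase of exon, with lengths from GENCODE release 29, made for another build than the counts. In control cells with DMSO, ACTB had the highest level at 719 CPM per kilobase, followed by ACTG1 at 379 and TAGLN2 at 243 CPM per kilobase, and the lowest measured genes were TGFBI at 0.242 and MYLK at 0.484 CPM per kilobase. ACTA2 had 2.39 CPM per kilobase in Lo19S cells with bortezomib, and 58.2 CPM per kilobase in control cells with DMSO. CNN1 had 0.33 CPM per kilobase in Lo19S cells with bortezomib, against 1.78 in control cells with bortezomib, and 0.28 in Lo19S cells with DMSO, against 2.02 in control cells with DMSO. YAP1, at 37.3 CPM per kilobase in control cells with DMSO, had more than WWTR1 at 6.94, and TEAD1 had 13.1 CPM per kilobase there.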

How the data were processed

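RNA of T47D cells was extracted with TRIzol and made into stranded polyA libraries, per the labels' protocols. Each library has 1 deposited file of raw counts per gene, as whole numbers that were not normalized. The authors used STAR 2.5.4b, featureCounts 1.6.1 and build GRCh37, per the submitters' processing notes. No source used here gives the strand setting or the handling of reads matching several genes. Of 57773 identifiers, 51996 were matched to a symbol.

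Counts were filtered with filterByExpr by group, scaled by TMM and fitted in edgeR 4.0.16 (R 4.3.3, limma 3.58.1) with robust quasi-likelihood, 1 coefficient per group. Each SE is the size of the log2 fold change divided by the root of its F statistic, approximate where counts are few. Counting intervals and floors of 3 counts cover counting error only, since reads are not independent molecules. The script was tested on simulated data: of genes changed 2-fold (1 log2 unit) it recovered 88.8% for Lo19S against control under DMSO, 86.7% for the same under bortezomib, 82.7% for bortezomib in Lo19S cells, 86.7% for bortezomib in control cells and 77.3% for the difference of responses. Alternatives were RLE size factors, library totals, no filter, DESeq2 1.42.0, a fit of the compared groups alone, a replicate block and leaving out each library.

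Genes were named if called with a log2 fold change of at least 1 between states, if an actin or a factor, or if among the 5 largest called rises or falls with bortezomib, and from each list as the largest called rise and fall per comparison. The results of 1 list are not reported here. The genes and lists were chosen with earlier results of these data known.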

Additional observations from a re-analysis of the deposited data

Results flagged for a closer look

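The bortezomib responses of 14 genes differed between the states by the edgeR test of the difference itself, at an adjusted p below 0.05, where 27.8% of all genes tested did. The genes were listed with the DMSO comparison inside this difference known, so the values are a description. As log2 differences, Lo19S minus control, CCN2 had 1.6, AMOTL2 0.71, ACTA2 0.47, MRTFB 0.31, YAP1 0.25, ACTG1 0.23, CNN3 0.21, TPM1 0.2 and TAGLN2 0.19. Negative differences were -0.33 in LATS2, -0.28 in CCN1, -0.24 in FLNA, -0.23 in MYL9 and -0.15 in MYH9. Most of these negative calls depend on the scaling: with library totals the split became 16 positive and 1 negative. That 1 was a YAP/TEAD target, and 0 of the myosin, crosslinker and adhesion genes, which include FLNA, MYL9 and MYH9, were called negative.

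CCN2 fell with bortezomib to 2 to 16 counts per library in both states, and without Lo19S bortezomib replicate 1 its difference was 1.26 and no longer called. ACTA2 lost its call without control bortezomib replicate 1 (0.36) or Lo19S bortezomib replicate 2 (0.36), CNN3 without control bortezomib replicate 2 (0.17), LATS2 without control DMSO replicate 1 (-0.28) or Lo19S bortezomib replicate 3 (-0.295), and MYL9 without replicate 3 of control (-0.20) or of Lo19S cells (-0.19) with bortezomib. MYH9 lost it without replicate 1 of control DMSO (-0.10), replicate 1 (-0.135) or 2 (-0.14) of Lo19S DMSO, control bortezomib replicate 2 (-0.13) or Lo19S bortezomib replicate 1 (-0.13). Leaving out control DMSO replicate 3 added calls for ACTN1, CAVIN1, CNN2, SRF, VCL and ZYX.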

How the results depend on the processing

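The counts of called genes stayed within 1.5 times under every alternative run: 25 to 27 for Lo19S against control under DMSO, 23 to 28 under bortezomib, 29 to 32 for bortezomib in Lo19S cells, 32 to 34 in control cells and 13 to 17 for the difference of responses. Leaving out 1 library at a time gave 24 to 28, 22 to 25, 30 to 31, 31 to 33 and 12 to 20, the 20 coming without control DMSO replicate 3. Library totals turned the sign of 10 values called with at least 1 of the scalings: in control cells with bortezomib ACTN1 to -0.135, VCL to -0.189, CAVIN1 to -0.219 and TEAD1 to -0.181, in Lo19S cells with bortezomib ACTG1 to -0.173, ACTN1 to -0.16, VCL to -0.004 and AMOTL2 to -0.178, and between states under bortezomib TAGLN2 to 0.00 and ACTN4 to 0.007. They also turned 9 small values called with neither scaling, such as TPM2 in control cells with bortezomib (0.10 with TMM, -0.28 with totals). TMM factors differ from library totals by composition; which scaling is nearer to absolute RNA amounts was not tested. Depth limits CNN1, CCN2, TPM4, CAV1, ANKRD1 and TGFBI, which have few counts in some groups.

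With the replicate number as a block the counts were 27, 24, 30, 33 and 14. Deviations of same-numbered libraries correlated at -0.072 to 0.026. This cannot decide whether the numbers pair the samples, because libraries with different numbers were not compared and counting noise lowers such correlations.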
